A study of Saccharomyces cerevisiae with 6 samples.

Results

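The genes described here take biotin, or vitamin H, from its precursors to the enzymes that carry it. They are the 10 genes BIO2, BIO3, BIO4, BIO5, VHT1, BPL1, ACC1, HFA1, PYC1 and PYC2, taken by name from the 6400 named genes of a transcript table, in which all 10 were found. The set was chosen by gene name with earlier results of these data known, and selected on one measured value in particular, the high TPM of BIO4 in the group T3 against T1. The contrast of T3 with T1, and its parts T2 against T1 and T3 against T2, are therefore given as a description of these genes, with no p-value. The study measured poly(A) RNA of the budding yeast Saccharomyces cerevisiae in 6 libraries of W303, a laboratory strain: the groups are named T1, T2 and T3, and each has 2 libraries, A and B. All 6 titles carry the word Arrest, and the series describes cultures that differ in mean size. The labels give no genotype beyond the strain, and neither a size, a time, a medium nor the means of arrest for any group, so the groups are compared by name. Whether A and B were grown separately is not stated, so p-values measure the spread between these libraries, which may be technical. The spread used for a gene is drawn toward that of other genes of like abundance, so it is not its own alone.

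Biotin is a cofactor of carboxylases, which use it to carry an activated carboxyl group. Laboratory strains of this yeast cannot make it from the start and depend on biotin, or on late precursors, in the medium. Bio5 brings in the precursor 7-keto-8-aminopelargonic acid, Bio3 turns that into 7,8-diaminopelargonic acid, Bio4 into dethiobiotin, and Bio2, an iron-sulfur enzyme of the mitochondrion, into biotin. Vht1 takes up biotin itself across the plasma membrane. Bpl1, the biotin ligase, attaches it to acetyl-CoA carboxylase (Acc1 in the cytosol, Hfa1 in the mitochondrion), pyruvate carboxylase (Pyc1 and Pyc2), the urea amidolyase Dur1,2 and the tRNA-binding protein Arc1. The transcription factor Vhr1 is known to activate VHT1 and BIO5 when biotin is scarce, through a sequence called the vitamin H-responsive element. Yeast that lacks iron is known to lower its biotin synthesis genes.

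The upstream sequences are shown because the transport and synthesis genes were all higher in T2 and T3 than in T1, and because this element is the known control site of VHT1 and BIO5. The element was searched on both strands as AATCA, 8 bases, then TGACT or TGATT. In the 300 bases before the start codon it was found in 14 of 6001 genes (0.233%), and VHT1 and BIO5 were the members among them. A wider form, in which the first arm may also be AGTCA, was added after the upstream regions of the members had been seen. In the 600 bases before the start codon the wider form was found in 27 of 5999 genes (0.45%), among them BIO2, BIO3, BIO5 and VHT1. Sequences are from the RefSeq copy of genome build R64, on the strand of the gene named, with the 2 arms of the element in capitals and 21 bases on each side.
VHT1 (chrVII:620085-620144, minus strand): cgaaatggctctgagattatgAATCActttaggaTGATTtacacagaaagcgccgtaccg
BIO5 (chrXIV:733548-733607, minus strand): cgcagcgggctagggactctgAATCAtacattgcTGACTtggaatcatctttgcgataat
BIO2 (chrVII:1065292-1065351, minus strand): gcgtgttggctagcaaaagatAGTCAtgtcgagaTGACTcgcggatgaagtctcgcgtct
BIO3 (chrXIV:733886-733945, plus strand): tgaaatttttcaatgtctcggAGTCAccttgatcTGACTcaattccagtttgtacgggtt
The element began 265 bases before the start codon in VHT1, 283 in BIO5, 390 in BIO2 and 384 in BIO3. In VHT1 and BIO2 it lay between genes. In BIO5 and BIO3 it lay inside the coding sequence of BIO4, which sits between them. In BIO2 and BIO3 the second arm runs on into TGACTC, the core letters of Gcn4 sites, so the letters of these elements overlap. A match describes letters and shows no binding. Of the other letters searched in windows of 221 bases on both strands, CATGTG was found before BIO5 (4.88% of all windows), inside the coding sequence of BIO4. AGGGG was found before PYC1 and PYC2 (16.8%). Windows of that length held the element, in either form, before no member. In windows of 600 bases CATGTG was found before BIO5, VHT1, BPL1, ACC1 and PYC1 (16.4%). AGGGG was found there before BIO2, PYC1 and PYC2 (39.7%).

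BIO5, BIO4 and BIO3 form a cluster on chromosome XIV. BIO5 (YNR056C, 731618 to 733303) and BIO4 (YNR057C, 733356 to 734069) lie on the minus strand with 52 bases between them, and BIO3 (YNR058W, 734291 to 735733) lies on the plus strand. Each is annotated as a single exon. BIO4 and BIO3 point away from each other and share 221 bases, shown here because the transcripts on its sides differed in how far they went. It holds no wide-form element. It holds the letters TATAAA, in capitals on either strand, at 2 places. Upstream windows of 221 bases held these letters in 2423 of 6001 genes (40.4%).
BIO4 to BIO3 (chrXIV:734070-734290, plus strand): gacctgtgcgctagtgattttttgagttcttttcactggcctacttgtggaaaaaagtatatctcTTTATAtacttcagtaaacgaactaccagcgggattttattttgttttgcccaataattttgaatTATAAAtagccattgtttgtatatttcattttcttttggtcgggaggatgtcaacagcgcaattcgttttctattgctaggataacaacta

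**Figure D1:**
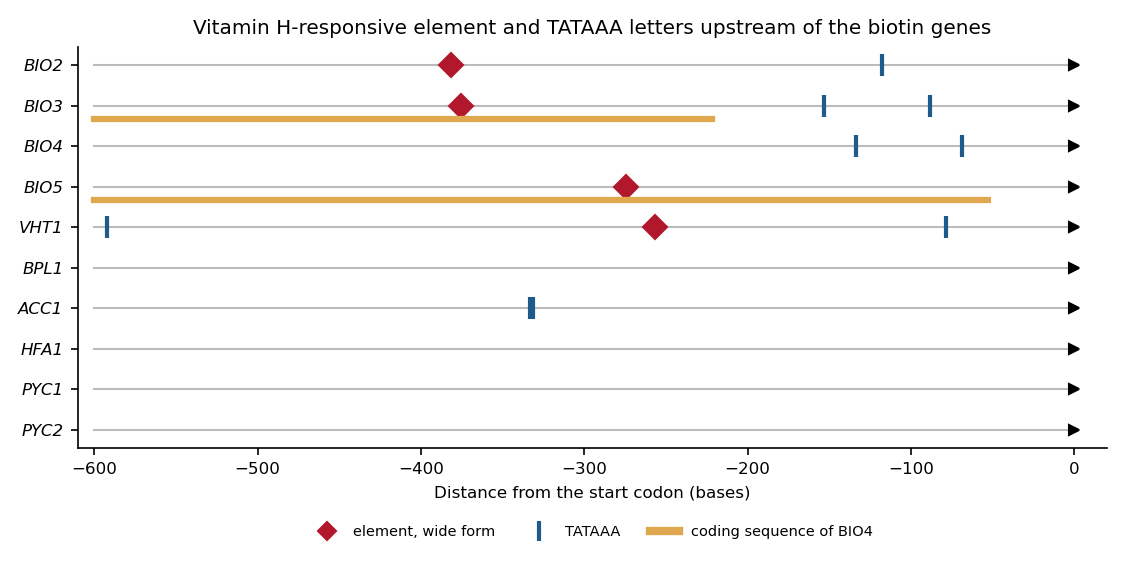
The 600 bases before the start codon of each of the 10 genes, with distance from the start codon in bases on the horizontal axis. Diamonds mark the wide form of the vitamin H-responsive element, found in BIO2, BIO3, BIO5 and VHT1, blue ticks mark TATAAA, and orange bars show where the window of BIO5 or BIO3 runs into the coding sequence of BIO4.

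The values are TPM, the authors' length-corrected relative abundance of transcripts, which says nothing of the amount of RNA per cell. In such bulk samples, fewer cells that use a gene and less of its RNA per cell cannot be told apart. Depth was recovered from the steps of the low values and ran from 17878687 to 23544795 fragments on annotated genes. At the fewest, a member had 862 fragments in a library (BIO4), a counting error of 3.41%. Changes below are differences of log2(TPM + 1), with the standard error (SE) of limma fitted to all 6 libraries and 6046 genes. The threshold was a Benjamini-Hochberg adjusted p of 0.05 over those genes.

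In T3 the transcripts for biotin synthesis and uptake were higher than in T1, the ligase differed little, and the acetyl-CoA carboxylase genes were lower. Of the 10 genes, 7 were past the threshold in T3 against T1, as were 48.0% of all genes tested. Since this contrast entered the choice of the genes, the counts here and in its 2 parts are a description, and nothing is read from them. Higher in T3 were 5 of the 10 (31.0% of all genes), namely BIO2, BIO3, BIO4, BIO5 and VHT1. Lower were ACC1 and HFA1 (16.9% of all genes were lower). In T2 against T1, 6 of the 10 were past the threshold (18.0% of all genes), the same genes without HFA1. Without a filter on low values 4 were, since VHT1 and ACC1 no longer passed, and under median-of-ratios or quantile scaling 7 were, with HFA1 added. In T3 against T2 they were BIO4 and PYC1, 2 of the 10 (21.9% of all genes). The median log2 difference of the 10 between T3 and T1 was 0.47, beside 0.09 over all genes.

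**Figure D2:**
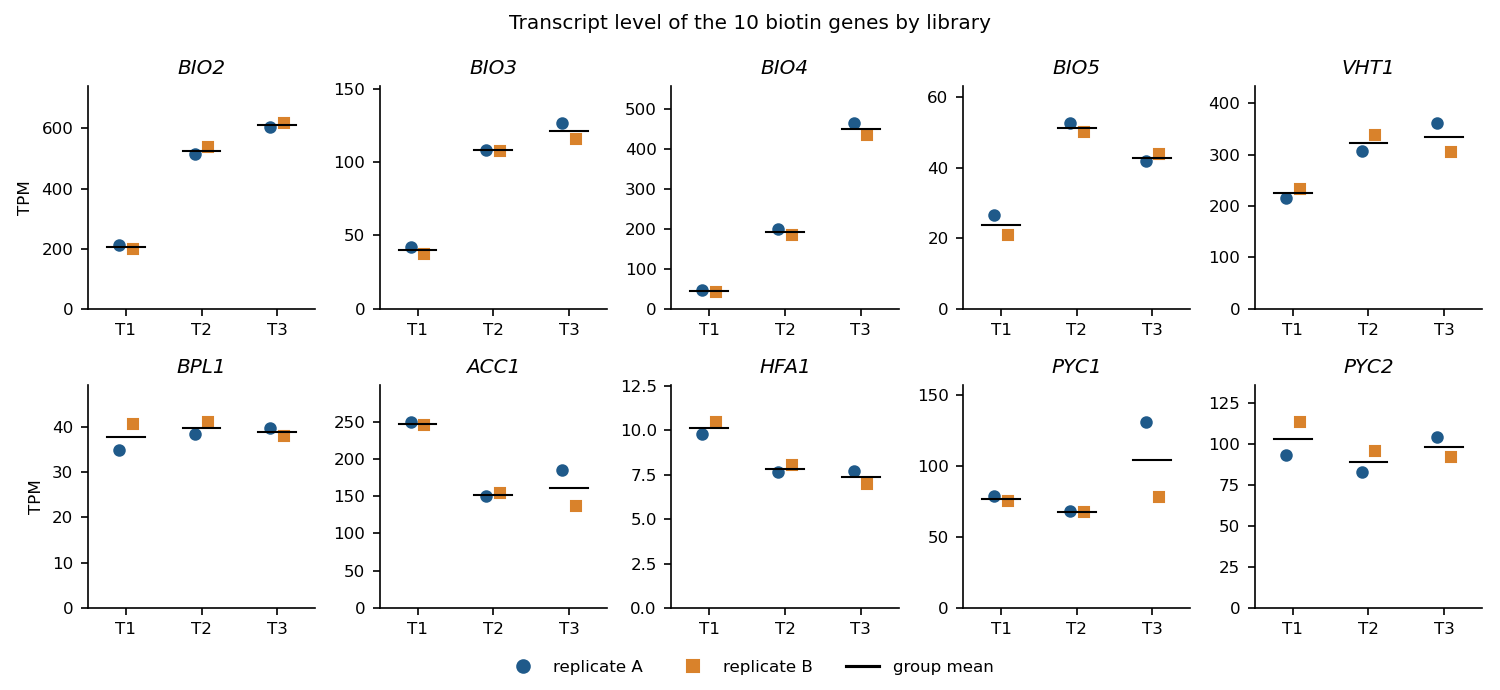
TPM of each gene in the 6 libraries, circles for replicate A, squares for replicate B and a line at the group mean; each vertical axis starts at 0. BIO2, BIO3 and BIO5 had made most of their change by T2, BIO4 went on to 464 and 434 TPM in T3, and BPL1 stayed between 34.8 and 40.9 TPM in all libraries.

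BIO4, the dethiobiotin synthetase gene, had 46.8 and 42.6 TPM in T1 (A, then B, here and for the other genes), 199 and 185 TPM in T2, 464 and 434 TPM in T3. Each group lay wholly above the one before. Groups of 2 libraries are small, and the share of all genes with groups apart was not tested. This holds wherever groups are said below not to overlap. The log2 difference of BIO4 was 2.08 (SE 0.09) from T1 to T2 and 1.22 (SE 0.09) from T2 to T3. The 3 group means were 44.7 ± 2.96, 192 ± 9.88 and 449 ± 21.6 TPM (SD, n = 2), so T3 held 10.05 times the TPM of T1.

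BIO3, the diaminopelargonic acid synthase gene on the other side of the shared 221 bases, lay at 42.2 and 37.5 TPM in T1. It lay at 109 and 108 TPM in T2 and at 127 and 116 TPM in T3. The groups did not overlap, but T2 and T3 were close. The log2 difference was 1.42 (SE 0.10) from T1 to T2 and 0.16 (SE 0.10) from T2 to T3, the latter not past the threshold. BIO4 and BIO3 lay close in T1 and parted from there. Within libraries the ratio of their TPM was 1.11 and 1.13 in T1, 1.84 and 1.72 in T2, then 3.66 and 3.74 in T3. The 3 groups of ratios did not overlap, and their means were 1.12, 1.78 and 3.70.

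BIO5, the gene of the precursor transporter, lay at 26.6 and 20.8 TPM in T1, 52.6 and 50.1 TPM in T2, 41.9 and 43.8 TPM in T3. It was highest in T2. The log2 difference was 1.09 (SE 0.12) from T1 to T2 and -0.26 (SE 0.12) from T2 to T3, the latter not past the threshold. The ratio of BIO5 to BIO3 was 0.631 and 0.555 in T1, 0.484 and 0.464 in T2, then 0.33 and 0.378 in T3. With 52 bases between BIO5 and BIO4 and no strand setting given in the sources used here, reads of a transcript that runs from one gene into the next cannot be assigned with certainty.

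The genes beside the cluster did not pass the threshold in T3 against T1, and none had an unadjusted p under 0.05. HOL1, a transporter gene, lay at 56.5 ± 1.43 TPM in T1 and 57.7 ± 2.52 in T3 (SD, n = 2; limma adjusted p = 0.821). MNT4, a putative mannosyltransferase gene, lay at 10.6 ± 0.626 and 8.75 ± 0.537 TPM (limma adjusted p = 0.136). FRE4, a ferric reductase gene, lay at 6.19 ± 0.0733 and 5.09 ± 0.391 TPM (limma adjusted p = 0.237).

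**Figure D3:**
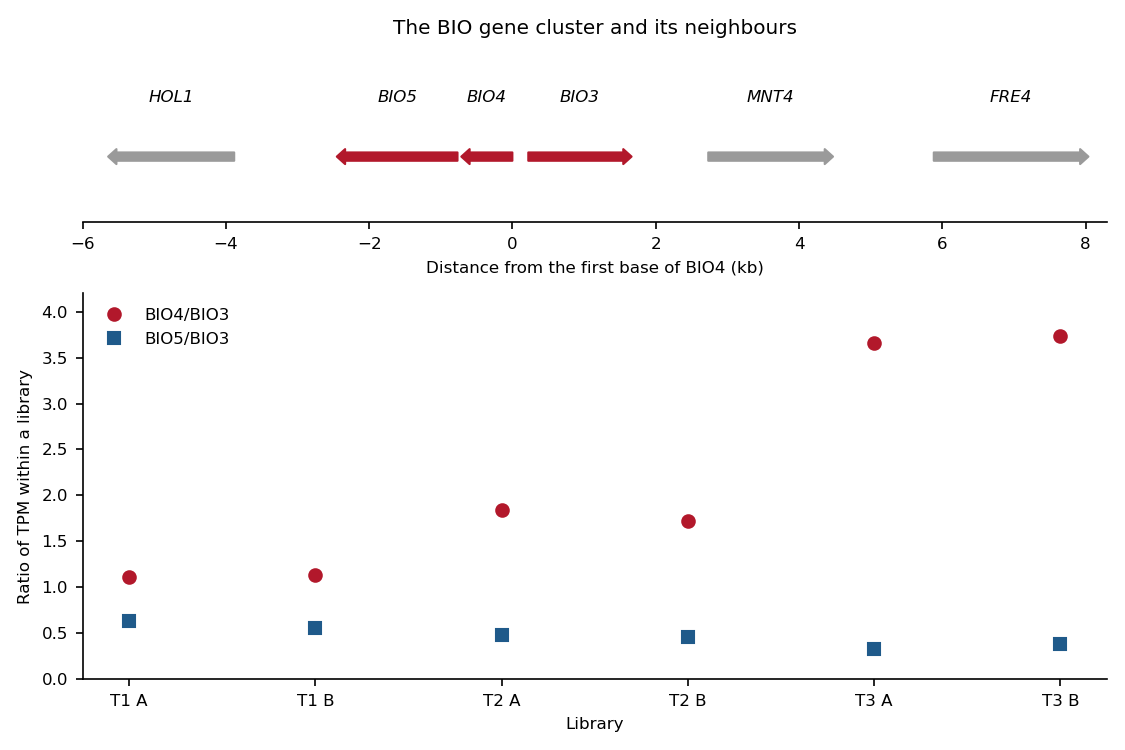
Top, arrows for BIO5, BIO4, BIO3 and their neighbours by distance from the first base of BIO4 in kb, pointing in the direction of transcription. Bottom, the ratio of TPM within each of the 6 libraries: BIO4 to BIO3 goes from 1.11 and 1.13 in T1 to 3.66 and 3.74 in T3, while BIO5 to BIO3 goes from 0.631 and 0.555 to 0.33 and 0.378.

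BIO2, the biotin synthase gene (YGR286C, chromosome VII, 1063813 to 1064940, a single exon), was the most abundant of the 10 in T3. Its libraries lay at 212 and 199 TPM in T1, 514 and 537 TPM in T2, 604 and 618 TPM in T3. The 3 groups did not overlap. The log2 difference was 1.35 (SE 0.08) from T1 to T2 and 0.22 (SE 0.08) from T2 to T3, the latter not past the threshold. BIO2 and BIO3 lie on different chromosomes, and their ratio was 5.03 and 5.3 in T1, 4.73 and 4.97 in T2, then 4.76 and 5.33 in T3. T3 overlapped both other groups, and T1 lay above T2.

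VHT1, the biotin transporter gene (YGR065C, chromosome VII, 618077 to 619858, a single exon), lay at 217 and 234 TPM in T1, 307 and 338 TPM in T2, 362 and 306 TPM in T3. T1 was below the other libraries, while T2 and T3 overlapped. The log2 difference was 0.52 (SE 0.10) from T1 to T2 and 0.05 (SE 0.10) from T2 to T3. VHT1 was the more abundant of the transporter genes in every library, and BIO2 passed it: their ratio, BIO2 to VHT1, went from 0.979 and 0.851 in T1 to 1.67 and 1.59 in T2, then 1.67 and 2.02 in T3.

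The contrast that the choice of genes used least is the step difference, the change from T2 to T3 minus the change from T1 to T2. With groups of equal size it is uncorrelated with T3 minus T1, and it takes in the T2 libraries. Of all genes tested, 65 were past the threshold in it (1.08%), 19 of them with a negative value (0.314%). A negative value means that, on the log2 scale, the change from T1 to T2 lies above that from T2 to T3. Among the 10 biotin genes 4 were past the threshold, all negative. The genes were chosen with their change between T1 and T3 known, and a gene that changes little in both steps cannot have a large step difference. This count is therefore a description too, and the adjusted p-values make no allowance for that choice. BIO2 had a step difference of -1.14 (SE 0.14, limma adjusted p = 0.00139) and BIO3 of -1.26 (SE 0.17, limma adjusted p = 0.00215). BIO5 had -1.35 (SE 0.20, limma adjusted p = 0.00536) and BIO4 -0.87 (SE 0.16, limma adjusted p = 0.0262). The sign for BIO4 depends on the scale. In TPM its second step was the larger, with means of 44.7, 192 and 449 TPM in T1, T2 and T3. VHT1 had -0.47 (SE 0.17, limma adjusted p = 0.27), which did not pass.

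The calls of BIO2 and BIO3 in the step difference were kept under 13 of 14 other settings. They were lost without a filter on low values (limma adjusted p = 0.187 and 0.257), where 1 gene of 6400 was called. Some kept calls were near the threshold. Without the abundance trend the limma adjusted p was 0.0476 for both. Under quantile normalization it was 0.0315 for BIO2 and 0.0455 for BIO3. BIO4 kept its call under 8 of 14 and BIO5 under 9 of 14. Both lost it without a filter on low values (limma adjusted p = 0.308 and 0.325) and without T2 replicate A. BIO4 also lost it without T2 replicate B. Over all settings the step difference ran from -0.97 to -0.76 for BIO4 and from -1.52 to -1.18 for BIO5. In log2 terms T2 had gone 86.2% of the way from T1 to T3 for BIO2, 89.9% for BIO3 and 63.1% for BIO4. For BIO5, highest in T2, the value was 131%. VHT1, whose step difference did not pass, had gone 91.6% of the way.

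**Figure D4:**
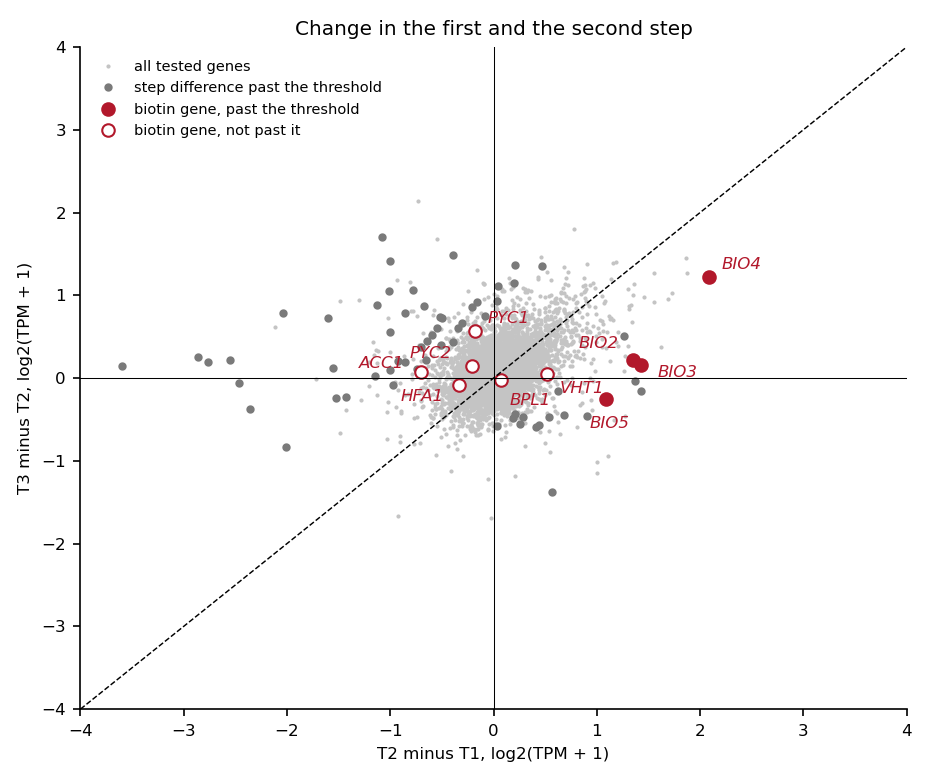
Difference of log2(TPM + 1) from T1 to T2 (horizontal) and from T2 to T3 (vertical) for 6046 genes; the dashed line marks equal steps, and larger grey points are genes whose step difference passed the threshold. BIO2, BIO3, BIO4 and BIO5 (filled red) lie to the right of the dashed line, and the other biotin genes (open red) did not pass.

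BPL1, the biotin ligase gene (YDL141W, chromosome IV, 203039 to 205111), changed least by group mean. It lay at 34.8 and 40.6 TPM in T1, 38.3 and 40.9 TPM in T2, 39.8 and 38 TPM in T3, so that all groups overlapped. The log2 difference between T3 and T1 was 0.05, with a 95% interval of -0.18 to 0.28, and its sign turned under median-of-ratios scaling (-0.046), under quantile normalization (-0.065) and without T1 replicate A (-0.061).

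Of the acetyl-CoA carboxylase genes, ACC1 makes the cytosolic enzyme that commits carbon to fatty acids (YNR016C, chromosome XIV, 654673 to 661374). It lay at 249 and 245 TPM in T1, 150 and 154 TPM in T2, 185 and 137 TPM in T3. T1 was above every other library, and the T3 libraries lay on both sides of T2. The log2 difference was -0.70 (SE 0.12) from T1 to T2 and 0.07 (SE 0.12) from T2 to T3. Its step difference was 0.77 (SE 0.21, limma adjusted p = 0.11), which passed when the filter was set at 10 TPM (limma adjusted p = 0.0296). Across 14 settings its value ran from 0.55 to 0.98.

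HFA1, the gene of the mitochondrial enzyme (YMR207C, chromosome XIII, 677193 to 683564), was the least abundant of the 10. It lay at 9.77 and 10.4 TPM in T1, 7.63 and 8.02 TPM in T2, 7.7 and 6.99 TPM in T3. T1 was above the others, and T2 and T3 overlapped. The log2 difference between T3 and T1 was -0.41 (SE 0.14). It no longer passed the threshold without T1 replicate B or without T3 replicate B. ACC1 transcripts were 25.5 and 23.5 times as abundant as HFA1 transcripts in T1, 19.6 and 19.2 times in T2, and 24.1 and 19.6 times in T3. The coding sequences are 66.2% identical with no shared run longer than 26 bases, shorter than a 150-base read.

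The pyruvate carboxylase genes, whose enzymes make oxaloacetate in the cytosol, were PYC1 (YGL062W, chromosome VII, 385196 to 388732) and PYC2 (YBR218C, chromosome II, 658707 to 662249). PYC1 lay at 79 and 75 TPM in T1, 68.1 and 67.6 TPM in T2, 131 and 77.9 TPM in T3. The T3 libraries lay apart, with replicate B within the span of T1. The log2 difference from T2 to T3 was 0.57 (SE 0.17), and without T3 replicate A it was 0.20; it was past the threshold under 8 of 15 other settings, and not without T2 replicate A, T2 replicate B or T3 replicate A. The log2 difference between T3 and T1 was 0.39 (SE 0.17), 0.016 without T3 replicate A and 0.76 without T3 replicate B. It was not past the threshold with the filter at 1 TPM, and passed with the filter at 10 TPM. PYC2 lay at 93.4 and 113 TPM in T1, 82.7 and 95.6 TPM in T2, 104 and 92.3 TPM in T3, with overlapping groups. Its log2 difference between T3 and T1 was -0.07, with a 95% interval of -0.32 to 0.18, and 0.07 without T1 replicate B. The coding sequences are 85.5% identical and share a run of 200 bases, so the authors' counting may have split or dropped some reads of the pair.

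The order of the levels per length changed between the groups. In T1 it began with ACC1, VHT1 and BIO2 at mean levels of 247, 225 and 205 TPM, whose libraries did not overlap. PYC2 and PYC1 followed at 103 and 77 TPM without overlap. BIO4 came next at 44.7 TPM, just above BIO3 at 39.8, which overlapped BPL1 at 37.7, and BIO5 and HFA1 came last at 23.7 and 10.1 TPM. In T2, where no neighbours in the order overlapped, BIO2 led at 526 TPM, before VHT1 at 322 and BIO4 at 192. In T3 it began with BIO2, BIO4 and VHT1 at 611, 449 and 334 TPM, whose libraries did not overlap. ACC1, BIO3, PYC1 and PYC2 followed at 161, 121, 104 and 98.4 TPM, with overlaps of PYC1 with BIO3 and PYC2, and with BIO5, BPL1 and HFA1 at 42.8, 38.9 and 7.34 TPM at the end.

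None of 4 other genes that use or control biotin passed the threshold in T3 against T1. VHR1, the gene of the activator of VHT1 and BIO5, lay at 18.2 and 17.4 TPM in T1, 15.8 and 16.1 TPM in T2, 17.8 and 15.7 TPM in T3 (limma adjusted p = 0.553 in T3 against T1). VHR2, a related gene, lay at 56.7 ± 6.1 TPM in T1 and 57.8 ± 4.72 in T3 (SD, n = 2; limma adjusted p = 0.848). DUR1,2 lay at 12.5 ± 0.46 and 14.4 ± 0.57 TPM (limma adjusted p = 0.246), and ARC1 at 416 ± 28.6 and 423 ± 38.6 TPM (limma adjusted p = 0.865). None of the 4 had an unadjusted p under 0.05 in limma in that contrast; DUR1,2 passed in T3 against T2, with a log2 change of 0.40 (limma adjusted p = 0.0397). The 23 other genes with the wide-form element in their 600 upstream bases had a median log2 difference of 0.21 between T3 and T1, with 10 higher and 1 lower past the threshold (all genes 31.0% and 16.9%), and 0 past it in the step difference (limma; 7 at an unadjusted p under 0.05).

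Bio2 needs an iron-sulfur cluster, so the genes that build these clusters in the mitochondrion were taken as a list. Of 18, 9 were higher and 1 lower in T3 than in T1 (all genes 31.0% and 16.9%), with a median log2 difference of 0.29. ISA1, which acts in the late step that supplies enzymes of the Bio2 kind, went from 80.3 ± 1.63 to 165 ± 9.63 TPM (SD, n = 2) and rose by 1.03 on the log2 scale (SE 0.10, limma adjusted p = 1.31e-06). ISU2, a scaffold gene, rose by 0.63 (SE 0.11). MGE1, the nucleotide exchange factor gene of mitochondrial Hsp70, fell by 0.30 (SE 0.08, limma adjusted p = 0.011). Among the other genes of the list, ISA2 and IBA57 had values of -0.25 and -0.19 and did not pass. NFU1 and BOL1 rose by 0.40 (SE 0.10) and 0.53 (SE 0.12) and passed, while BOL3 had 0.09 and did not. None of the 18 passed in the step difference in limma, with 4 at an unadjusted p under 0.05.

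Of 22 genes of iron uptake and the iron response, 7 were higher and 2 lower in T3 than in T1, beside 31.0% and 16.9% of all genes. Their median log2 difference was 0.20. VHT1 was also on this list and was left out of its counts as a biotin gene. The share that was higher is near that of all genes. HMX1, the heme oxygenase gene, rose by 1.11 (SE 0.11, limma adjusted p = 2.35e-06), and SIT1, a siderophore transporter gene, went from 23.6 ± 1.80 to 50.5 ± 9.21 TPM. FRE1, a ferric reductase gene, fell by 0.60 (SE 0.12), and ENB1, an enterobactin transporter gene, fell by 0.52 (SE 0.10). FET3 and FTR1, which make the high-affinity iron uptake complex, had values of 0.26 and 0.03 and did not pass. From T1 to T2 they had -0.43 and -0.19, not past the threshold. From T2 to T3 FET3 rose by 0.69 (SE 0.16, limma adjusted p = 0.00666), while FTR1 had 0.22 and did not pass. None of the 22 passed in the step difference in limma, with 5 at an unadjusted p under 0.05.

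The genes that work next to the biotin enzymes moved in both directions. Of 14 genes listed around Acc1 and cytosolic fatty acid synthesis, 2 were higher and 5 lower in T3 (all genes 31.0% and 16.9%). Their median was 0.03. The list included ACS2 and SNF1, which are not downstream of Acc1, had values of 0.20 and 0.03, and did not pass. OLE1, the fatty acid desaturase gene, fell by 0.64 between T1 and T3 (SE 0.10, limma adjusted p = 0.000131) and had a step difference of 0.85 (limma adjusted p = 0.0335), at means of 352, 210 and 225 TPM in the 3 groups. ELO2, a fatty acid elongase gene, fell by 0.57 (SE 0.10). FAA1, an acyl-CoA synthetase gene, rose by 0.58 (SE 0.11), and ACB1, the acyl-CoA binding protein gene, rose by 0.53 (SE 0.09). Of 10 genes of mitochondrial fatty acid and lipoate synthesis, downstream of Hfa1, 3 were higher and 0 lower (all genes 31.0% and 16.9%), with a median of 0.01. ETR1, the enoyl reductase gene, rose by 1.02 (SE 0.09), and MCT1, the malonyl transferase gene that takes up the product of Hfa1, by 0.68 (SE 0.11).

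Of 20 genes of pyruvate metabolism around the pyruvate carboxylases, 11 were higher and 1 lower (all genes 31.0% and 16.9%), with a median of 0.39. MPC3, a mitochondrial pyruvate carrier gene, rose by 1.05 (SE 0.10) and PYK2, a minor pyruvate kinase gene, by 0.92 (SE 0.11). PDC5, a minor pyruvate decarboxylase gene, fell by 0.70 (SE 0.14). MDH2, the cytosolic malate dehydrogenase gene, passed in the step difference at 1.15 (limma adjusted p = 0.0249) and is named for that. The lists were chosen with results of these data known, and their counts are a description. Genes named as the largest rises and falls of a list were taken from those past the threshold in T3 against T1. Their adjusted p-values in that contrast are therefore a description too.

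**Figure D5:**
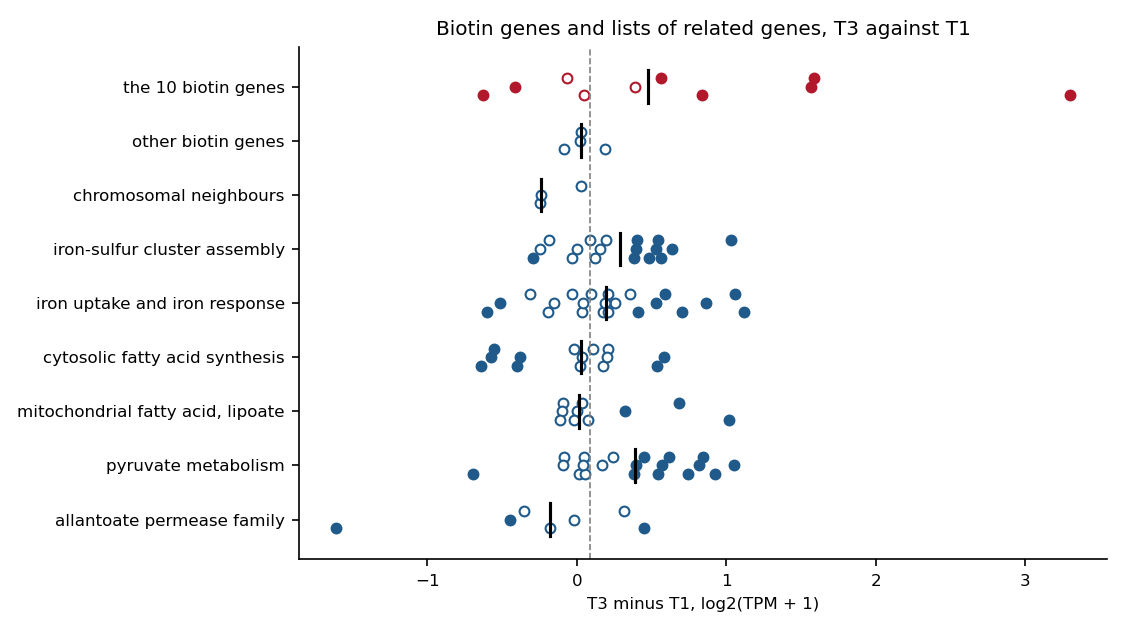
Difference of log2(TPM + 1) between T3 and T1 for the 10 biotin genes (red) and for the genes of each list (blue), filled where the gene passed the threshold, with a black bar at the list's median and a dashed line at the median of all genes, 0.09. BIO4 lies farthest to the right at 3.30, and the 4 other biotin genes and the 3 chromosomal neighbours did not pass.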

How the data were processed

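The deposited table holds TPM, made by the authors, for 6 libraries and 6401 entries. The submitters' processing notes name STAR 2.5.2b, featureCounts, Subread 1.5.2 and build R64, and paired reads of 150 bases come from the labels' protocols; settings are not given in the sources used here. One unnamed entry was left out, and 6083 of 6400 names matched the RefSeq R64 annotation. TPM times exonic length gave whole fragments for 99.67 to 99.92% of genes with up to 500 fragments per library (within 0.1 of a whole number); these served only as depth.

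The 6046 genes that averaged 1 TPM or more were fitted as log2(TPM + 1) with limma 3.58.1 (R 4.3.3): group means, eBayes with an abundance trend, 3 residual and 10.7 prior degrees of freedom, two-sided tests, Benjamini-Hochberg adjustment over all genes at 0.05. The fit was also run on simulated data with independent normal noise of the fitted spread. Such data meet the assumptions of limma, so they cannot show whether the libraries of a group are independent. Python 3.11.15, pandas 2.3.3, NumPy 2.4.6, Biopython 1.88 and matplotlib 3.10.9 did the rest. Members, lists, tests and alternatives were chosen with earlier results of these data known. From each list the text names the 2 largest rises and 2 largest falls past the threshold in T3 against T1. Every gene of the 2 shortest lists (neighbours, other biotin genes) is named. ISA2, IBA57, NFU1, BOL1, BOL3, ACS2, SNF1, FET3, FTR1 and MDH2 were added after their values were seen. Likest patterns were taken by root mean square distance of log2(TPM + 1) from the T1 mean, over the 6 libraries and the 5152 genes of at least 10 TPM. Alternatives were the pseudocount, the filter, the scaling, the trend, a replicate block, fits of 2 groups, and each library left out.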

Additional observations from a re-analysis of the deposited data

How the results depend on the processing

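Of the 10 genes, 7 or 8 were called in T3 against T1 under all 15 alternatives, 4 to 7 in T2 against T1, and the 44 called genes of the lists numbered 36 to 52. The 4 calls in the step difference became 0 without a filter on low values, 2 after rescaling by the median of ratios, after quantile normalization and without the abundance trend, and 2 to 6 with 1 library left out. Over all genes, the 65 calls of the step difference became 1, 20, 10 and 15 in the same order, 113 at 10 TPM or more and 43 with the replicate block, and ran from 18 to 254 with 1 library left out. The 2 calls in T3 against T2 became 1 in those 4 settings and 1 to 2 with 1 library left out, through PYC1. Without a filter, all-gene calls in T2 against T1 went from 1091 to 544 and in T3 against T2 from 1325 to 627; the latter became 735 without T2 replicate A and 641 without T3 replicate A, and the former 650 without T2 replicate A and 705 without T2 replicate B. The cause was not tested. HFA1 has no value at 10 TPM or more, and the step difference none in fits of 2 groups. The 7 genes called in T3 against T1 at 10 TPM or more included PYC1 in place of HFA1, so the genes called were not the same under every alternative. A lone library is assumed to vary like the other groups. With either T1 library left out, and in the fit of T2 and T3 alone, the prior degrees of freedom became infinite. A gene's own spread then did not enter its test, so the calls of these fits cannot be set beside the others.

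Median of ratios and quantile scaling moved the median of T3 minus T1 by -0.09 and -0.12. Signs turned, among the members, in values that were not called: BPL1 in T3 against T1 (-0.046 and -0.065 under these scalings), and in T3 against T2 VHT1 (-0.029 and -0.100) and ACC1 (-0.0080 and -0.0080). With 1 library left out, BPL1 ran from -0.061 to 0.156 (T3 against T1), -0.034 to 0.183 (T2 against T1), -0.073 to 0.019 (T3 against T2) and -0.210 to 0.0069 (step difference), PYC2 from -0.204 to 0.071 (T3 against T1), and in T3 against T2 VHT1 from -0.073 to 0.167 and ACC1 from -0.148 to 0.284. With the replicate block 7, 6, 2 and 4 members were called in the 4 contrasts, as without it. The letters A and B pair nothing in the labels, and A minus B correlated between groups at 0.13, -0.06 and -0.15 over genes. Counting error was at most 3.41% for a member in a library.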

Other observations

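Vht1 belongs to the allantoate permease family, and its relatives moved in both directions. Of 7 other family genes, 1 was higher and 2 lower in T3 than in T1 (all genes 31.0% and 16.9%). TNA1, the nicotinic acid transporter gene, lay at 99.7 and 104 TPM in T1, 51.1 and 56.8 in T2, and 32.4 and 32.9 in T3, with each group wholly below the one before (log2 change -1.61, SE 0.10, limma adjusted p = 2.92e-08). FEN2, the pantothenate transporter gene, fell by 0.44 (SE 0.10; limma adjusted p = 0.0031), and SEO1, a putative permease gene, rose by 0.45 (SE 0.15; limma adjusted p = 0.0226).

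The gene whose course over the 6 libraries lay closest to BIO2, of 5152 genes compared, was BIO3, at a root mean square distance of 0.07 on the log2 scale, and the reverse held too. THI5, a gene of thiamine precursor synthesis from a family of near-identical copies and therefore uncertain, was the third closest to both, at 0.12 and 0.15, after YPR078C. THI12, of the same family, was the closest to BIO5, at 0.22. The closest to BIO4 were GPG1 at 0.17, CIS3 at 0.21 and RNR1 at 0.43. The course of VHT1 was shared by 498 genes within 0.2, with GRE3, ASF1 and SSA3 the closest. These distances describe 6 libraries that share their group differences.

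Of the 19 genes with a negative call in the step difference, 4 were biotin genes, a description, since these were chosen with their change between T1 and T3 known. SSA4, a stress-induced Hsp70 gene, had the lowest value at -1.95 (limma adjusted p = 0.000378); it was named after its values were seen.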
